A study of Mus musculus with 24 samples.

Results

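Sons of vitamin D-deficient mothers were compared with sons of control mothers after both had eaten a high-fat diet. The comparison holds the 3 VDD HF males against the 3 CTRL HF males, 6 of the 24 libraries of the study, and every gene of their table was considered. An entry was tested when 3 or more of these libraries held 10 or more normalized reads of it, which left 16013 of 56895 entries. These were divided into 131 genes that follow skeletal muscle transcripts and 15882 that do not. A gene was placed with muscle when it stood on a list of 66 striated muscle genes, or when its log2 level followed the mean log2 level of Acta1 and Ckm with a correlation of at least 0.8 within groups. That correlation was taken over the 18 libraries of the other 6 groups, so that the 6 libraries compared here had no part in it. The list of muscle genes was drawn up with earlier results of these data known.

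All mice were C57BL/6J. Mothers of the CTRL group ate a diet with 1.0 IU of vitamin D3 per g for 8 weeks before mating, and mothers of the VDD group a diet with 0.0 IU per g. According to the paper the diet without vitamin D was also fed during gestation. After birth every mother received the control diet. The sons of both groups ate a diet with 45% of its energy from fat (HF) from 6 weeks of age for 8 weeks, and were fasted overnight before the retroperitoneal fat was taken. Polyadenylated RNA was sequenced from 1 fat depot of each mouse. The sources used here do not tell the litter of each mouse, so littermates cannot be told from unrelated mice, and p-values measure the spread among 3 mice per group.

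Retroperitoneal fat lies against the muscles of the posterior abdominal wall. It is a white fat depot in which adipocytes share the tissue with macrophages, stromal progenitors, vessels and mesothelium, and in which some adipocytes can take on thermogenic features. Skeletal muscle has its own isoforms of actin, myosin, creatine kinase and calcium pumps, which adipocytes are not known for. Brown and beige adipocytes share with muscle a set of oxidative genes, such as those for fatty acid binding, muscle-type cytochrome oxidase subunits and carnitine transfer. In bulk tissue, fewer cells of a type and less RNA per cell cannot be told apart.

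Between 14789476 and 17275511 reads fell on genes in the 6 libraries. Across tested genes the CTRL HF males correlated among themselves with r from 0.961 to 0.973. Among the VDD HF males, 2298 and 2307 correlated with r = 0.980, while 2308 correlated with them at 0.930 and 0.945. VDD HF male 2308 therefore stood apart from the other mice of its group. The 8 adipocyte markers summed to 456237 to 787177 normalized reads in CTRL and 461258 to 554348 in VDD, so the fat label held in all 6 libraries. Y-linked genes were expressed in all 6, and Xist, the RNA of the inactive X chromosome, had 178 normalized reads in CTRL HF male 2131 and at most 25.8 in the other 5, against at least 8008 in every female library. The word renal stands in the names of CTRL HF male 2131 and VDD HF male 2307, 1 in each group, and the 4 kidney markers summed to at most 261 normalized reads. That highest sum was in VDD HF male 2308 and was all Lrp2. Umod and Slc34a1 had reads in CTRL HF male 2131 alone, at 4.81 and 1.92.

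With the study's limits, an adjusted p (limma, Benjamini-Hochberg) below 0.01 together with a fold over 1.5 or under 0.66, 0 genes were called (0% of those tested). At an adjusted p below 0.05 the count was also 0. The smallest adjusted p was 0.189. With limma-voom on the recovered reads the count was also 0. The paper used DESeq2 at the study's limits and counted genes changed in both directions for these groups, more of them up-regulated than down-regulated. The count of 0 therefore belongs to limma alone. Without adjustment, 850 genes (5.31% of those tested) had a p under 0.05, against 766 with limma-voom. A second, weaker threshold is therefore used, namely the same fold and a p below 0.01 before adjustment, which 115 genes (0.718%) passed. Of these 75 (0.468%) were higher in VDD and 40 (0.25%) were lower, and in all 115 the 3 VDD mice did not overlap the 3 CTRL mice. Over all tested genes 5.04% lay wholly above and 5.25% wholly below the CTRL mice. Following muscle were 13 of the 75 higher genes and 0 of the 40 lower ones, which left 62 higher and 40 lower genes in the rest. These counts turned on single mice. Without 2308 they were 118 muscle-following and 436 other genes, without 2307 they were 3 and 36, and without CTRL HF male 2128 or 2127 or VDD HF male 2298 the muscle-following count was 5, 3 and 4. None of these genes passed the adjusted test, and their values are given as levels and differences only.

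Acta1 encodes the skeletal muscle actin of the thin filament and lies on chromosome 8 (123891769 to 123894751, minus strand, GRCm38). It had 1233, 3102 and 1412 normalized reads in CTRL HF males 2128, 2127 and 2131. In VDD HF males 2298, 2308 and 2307 it had 47392, 1072 and 57999. The library of 2308 lay below all 3 CTRL libraries, and the other two VDD libraries lay above them. Ckm, the muscle creatine kinase on chromosome 7 (19404776 to 19422841, plus strand), had 15.7, 31.7 and 367 normalized reads in CTRL. In VDD it had 31278, 89.2 and 52576, so that 2308 fell within the CTRL range. The log2 fold change was 3.03 (standard error 1.39, unadjusted p = 0.063) for Acta1 and 6.50 (standard error 2.35, unadjusted p = 0.0256) for Ckm, both with an adjusted p of 0.94 in limma.

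**Figure D1:**
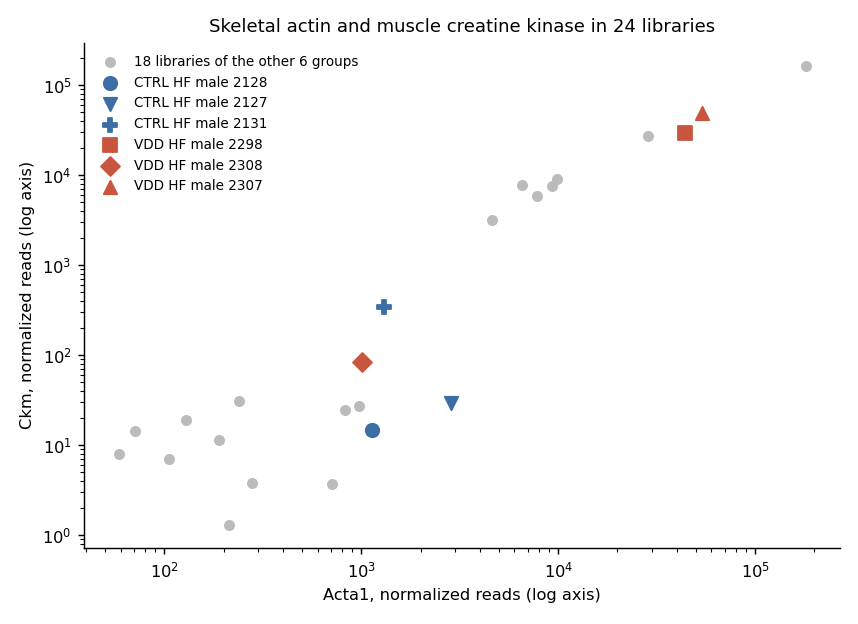
Normalized reads of Acta1 (x axis) and Ckm (y axis) on log axes, scaled over all 24 libraries, with the 6 HF male libraries in colour and the 18 others in grey. VDD HF males 2298 and 2307 sit at the upper right, and VDD HF male 2308 sits near the CTRL HF males. In the grey libraries 1 lies higher still.

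Other muscle genes had the same pattern as Acta1 and Ckm. Genes that follow muscle held 0.0842% to 0.136% of the reads in the CTRL HF males and 0.0932% in VDD HF male 2308, against 3.67% in 2298 and 5.52% in 2307. Of the 131 tested genes that follow muscle, 130 were higher in VDD, with a median log2 fold change of 3.22 (0.0025 over all tested genes). In 107 of them (81.7%) both 2298 and 2307 lay above every CTRL mouse while 2308 did not, a pattern seen in 7.34% of all tested genes. In another 20 (15.3%, against 5.04% of all tested genes) all 3 VDD mice lay above the CTRL mice. A gene with muscle reads in few mice passed the filter on low values only through libraries where it was high, so these counts describe the genes that passed and not the 168 that were not tested.

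The muscle list itself showed the difference in every role. Of its 66 genes 45 were tested, and all 45 were higher in VDD, with a median log2 fold change of 4.92 and 4 past the unadjusted threshold. Thick filament genes (9 tested of 12) had a median of 5.05, thin filament genes (7 of 10) 5.33, and genes of the Z-disc and titin (9 of 11) 5.74. Calcium handling genes (9 of 12) had a median of 4.52 and genes of muscle energy metabolism (9 of 12) 4.24. Of 9 regulators and satellite cell genes only Smyd1 and Klhl41 were tested. The satellite cell markers Pax7, Myod1 and Myf5, which mark muscle stem cells and their progeny, had 0 reads in all 3 CTRL libraries and in 2308. They summed to 40.2 normalized reads in 2298 and 23.7 in 2307.

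**Figure D2:**
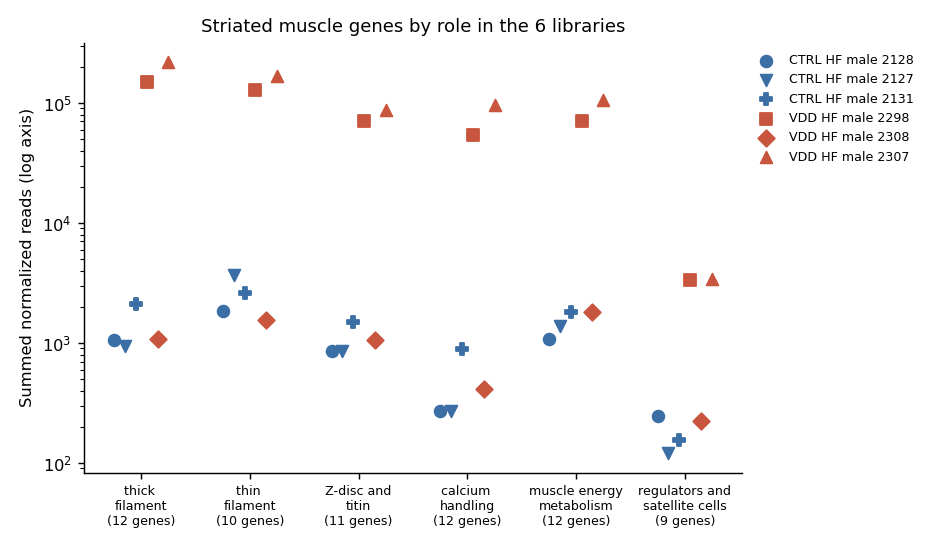
Summed normalized reads (log axis) of the striated muscle list by role, 1 symbol for each of the 6 HF male libraries. In each role VDD HF males 2298 and 2307 lie above the other 4 libraries, and VDD HF male 2308 lies near the 3 CTRL HF males, below them for the thin filament.

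Acta1 was the most abundant gene of the list in the CTRL libraries and in 2308, and Myh4 in 2298 and 2307. Myh4, the fast myosin heavy chain, had 20.6, 53.7 and 777 normalized reads in CTRL HF males 2128, 2127 and 2131, and 73718, 223 and 145800 in VDD HF males 2298, 2308 and 2307. Ttn, the giant spring protein of the sarcomere, had 11.8, 30.5 and 190 in CTRL and 30111, 44.1 and 33019 in VDD. The log2 fold change of Tnnt3, a fast troponin T, was 6.47 (standard error 2.32), and that of Actn3, the fast fibre actinin, was 5.74 (standard error 2.07). Among calcium handling genes Atp2a1, the calcium pump of fast fibres, stood at 6.40 (standard error 2.40) and the calcium buffer Pvalb at 6.84 (standard error 2.30). Myl1, a myosin light chain, had 658 to 751 normalized reads in CTRL and a smaller log2 fold change, 3.38 (standard error 1.29). Eno3, muscle enolase, had 180 to 326 in CTRL, 170 in 2308, and 10109 and 14069 in 2298 and 2307. Smyd1, a methyltransferase needed for sarcomere assembly, had 113 to 236 normalized reads in CTRL, 218 in 2308, and 1566 and 1556 in the other two VDD mice. The alignment kept only reads with a unique position, so reads that fit more than 1 near-identical myosin or actin isoform were lost and the levels of single isoforms are less certain.

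The VDD mouse with the lowest Acta1 and Ckm level was 2308. Without it only 2298 and 2307 remained in VDD, both with high levels. That muscle genes lead the calls of this fit was therefore set by which mouse was left out. Without 2308, limma called 142 genes at an adjusted p under 0.01 and the fold (0.903% of 15726), and 141 of them were higher in VDD (0.897%). Of the 142, 100 follow muscle, and 41 of the remaining 42 had a correlation with muscle of at least 0.5 in the other 18 libraries, against 5.62% of the 15598 genes of the rest tested without 2308. The exception was Lyve1, a receptor of lymphatic vessels and tissue macrophages, at 634, 663 and 637 normalized reads in CTRL, 193 in 2298, 718 in 2308 and 117 in 2307. Without 2308 the median of the muscle list was 7.93. With the Acta1 and Ckm level of each library as a covariate, the median was 0.18. Acta1 and Ckm are on this list and most of its genes follow them, so a small median was built into that fit.

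The start regions of these genes were read for motifs known from muscle promoters. The 250 bases before the RefSeq start of 4 of them (GRCm38.p6, gene strand, 5′ to 3′) are shown because they belong to the actin, the myosin, titin and a regulator named above. Capitals mark the CArG box, the site of serum response factor, and the MEF2 site, 2 motifs known from muscle promoters and searched on both strands.
Acta1 (chr8:123894776-123895025, minus): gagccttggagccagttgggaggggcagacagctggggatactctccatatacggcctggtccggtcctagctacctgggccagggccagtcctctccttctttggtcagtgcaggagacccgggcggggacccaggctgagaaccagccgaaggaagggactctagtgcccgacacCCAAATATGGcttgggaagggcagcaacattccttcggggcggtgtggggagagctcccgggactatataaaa
Myh4 (chr11:67237562-67237811, plus): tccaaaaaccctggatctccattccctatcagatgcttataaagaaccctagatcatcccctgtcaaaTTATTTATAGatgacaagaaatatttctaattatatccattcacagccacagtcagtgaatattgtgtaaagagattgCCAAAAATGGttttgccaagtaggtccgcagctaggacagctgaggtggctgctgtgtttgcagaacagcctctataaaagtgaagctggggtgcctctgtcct
Ttn (chr2:76982548-76982797, minus): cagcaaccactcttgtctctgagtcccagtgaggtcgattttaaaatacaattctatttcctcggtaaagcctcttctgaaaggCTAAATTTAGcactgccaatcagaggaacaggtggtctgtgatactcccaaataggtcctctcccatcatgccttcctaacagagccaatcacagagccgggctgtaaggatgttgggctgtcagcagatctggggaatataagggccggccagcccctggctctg
Klhl41 (chr2:69669870-69670119, plus): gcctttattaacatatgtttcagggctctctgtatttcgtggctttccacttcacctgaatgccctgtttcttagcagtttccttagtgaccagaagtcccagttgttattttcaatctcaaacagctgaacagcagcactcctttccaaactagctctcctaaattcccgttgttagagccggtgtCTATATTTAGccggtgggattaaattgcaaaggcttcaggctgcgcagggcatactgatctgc

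Acta1 held a CArG box 73 bases before its RefSeq start, and Myh4 held both motifs. Ttn and Klhl41 held a MEF2 site and no CArG box. Every region shown thus held a marked motif, unlike most windows of genes that follow muscle. In windows of 300 bases (250 before to 50 after the start), 126 windows of 97 genes that follow muscle were matched by symbol. A MEF2 site stood in 15.1% of them, against 1.84% of 14262 windows of tested genes and 3.19% of all 32851 windows. A CArG box stood in 5.56%, against 1.29% and 1.63%. The E-box, written CANNTG, is short and stood in 76.2% of these windows and in 64.7% of those of tested genes. For the 62 higher genes of the rest, 64 windows of 48 genes were matched, with a MEF2 site in 6.25% and a CArG box in 3.12%. A match of letters is a description and not a site of binding.

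Among muscle-following genes that stand on none of the other lists, the most abundant was Tpm1, a tropomyosin, with a log2 fold change of 2.93 (standard error 1.19). It had 1738 to 2122 normalized reads in CTRL, 1515 in 2308, and 38989 and 51848 in 2298 and 2307. Mylk4, a muscle myosin light chain kinase, had 0.98, 2.44 and 36.6 in CTRL and 3715, 9.19 and 7070 in VDD. Cmya5, which encodes a large protein of the sarcomere, had a log2 fold change of 4.81, and Pde4dip one of 1.86. Tacc2 had the smallest difference of these, 1.15 (standard error 0.43). At the limit of the rule, Tcea3 (correlation 0.81, log2 fold change 2.60) was placed with muscle, while Pkia (0.78, 1.97) and Eda2r (0.78, 1.56) were placed in the rest.

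A few genes of the muscle group were high in 2308 as well. Fabp3, the fatty acid-binding protein of heart and muscle, is also expressed by brown adipocytes, and it had the smallest p of all tested genes. It had 13.7, 43.9 and 15.4 normalized reads in CTRL HF males 2128, 2127 and 2131, and 1176, 449 and 1218 in VDD HF males 2298, 2308 and 2307. The groups did not overlap, and the log2 fold change was 5.29 (standard error 0.53, limma adjusted p = 0.189). It remained 4.40 with the muscle level as a covariate. Its correlation with muscle in the other 18 libraries was 0.53, so that it stands with muscle by the list and not by the correlation.

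Cox7a1, a cytochrome oxidase subunit of muscle and brown fat, had 56.9, 98.8 and 48.1 normalized reads in CTRL and 338, 251 and 670 in VDD. Its log2 fold change was 2.55 (standard error 0.41, limma adjusted p = 0.876), and its correlation with muscle in the other libraries was -0.01. H19, an imprinted noncoding RNA of embryonic tissues and muscle, correlated with muscle at 0.95. It had 47.1, 61 and 93.4 normalized reads in CTRL and 776, 361 and 756 in VDD, a log2 fold change of 3.19 (standard error 0.36, limma adjusted p = 0.237). In 2308, whose Acta1 and Ckm were at control level, the log2 level of Fabp3, H19 and Cox7a1 lay 4.34, 2.47 and 1.94 above the CTRL mean. The difference in these 3 genes was thus also seen in the mouse without a raised muscle level.

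**Figure D3:**
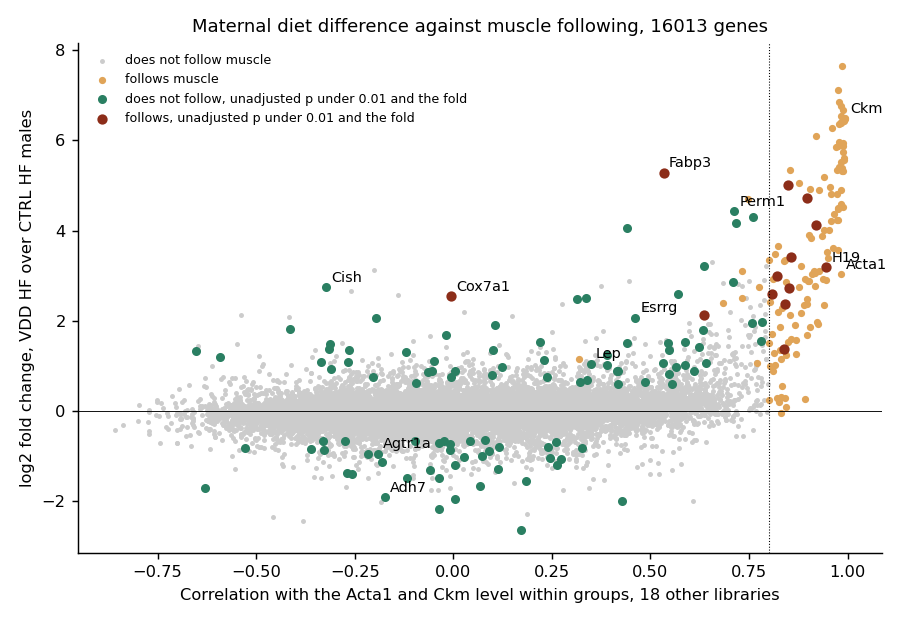
Log2 fold change of VDD HF over CTRL HF males (y axis) against each gene's correlation with the Acta1 and Ckm level within groups of the 18 other libraries (x axis), 1 point per tested gene, with the limit of 0.8 dotted. Genes that follow muscle reach a log2 fold change of 7.65, and those left of the limit stand on the muscle list, while the rest lie between -2.62 and 4.43.

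Outside the muscle group, oxidative metabolism held several of the genes with the smallest p among those higher in VDD. Esrrg, an oestrogen-related receptor that drives mitochondrial genes, had 25.5, 14.6 and 15.4 normalized reads in CTRL HF males 2128, 2127 and 2131, and 94.5, 63.4 and 80.2 in VDD HF males 2298, 2308 and 2307. All 3 VDD mice lay above the CTRL mice, with a log2 fold change of 2.07 (standard error 0.31, unadjusted p = 0.000199 in limma). Perm1, a muscle regulator that works with these receptors, had 7.84, 6.1 and 4.81 in CTRL and 410, 20.2 and 418 in VDD. Its correlation with muscle was 0.71, below the limit of 0.8, and 2308 was far below the other VDD mice. Ppargc1a, their coactivator, had 36.6 to 78.4 normalized reads in CTRL and 78.1 to 163 in VDD (log2 fold change 1.00, standard error 0.37), and the groups overlapped. Of the 5 tested genes of these receptors and their partners, gathered after the values had been seen, all were higher and 2 passed the unadjusted threshold, Esrrg and Perm1. Every CTRL mouse was under 10 normalized reads of Perm1, which therefore entered the test only through the VDD mice. The same held for 11 of the 62 higher genes of the rest, and 5 of the 40 lower genes entered only through the CTRL mice.

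Among enzymes of fuel oxidation, Pdk4 and Cpt1b passed the unadjusted threshold. Pdk4, the kinase that switches pyruvate dehydrogenase off when fat is burned, had 4731, 5840 and 4139 normalized reads in CTRL and 9800, 9802 and 15528 in VDD. The log2 fold change was 1.23 (standard error 0.24, unadjusted p = 0.000917 in limma), and no VDD mouse overlapped a CTRL mouse. Cpt1b, the muscle-type carnitine palmitoyltransferase, was low in all mice, at 4.88 to 7.84 in CTRL and 16.5 to 38.3 in VDD, and it too entered the test only through the VDD mice. Of 21 tested fatty acid oxidation genes 17 were higher in VDD and 4 lower, with a median log2 fold change of 0.27, 2 past the unadjusted threshold and 0 past the adjusted one. Cpt1a, the form that fat and liver express, had a log2 fold change of 0.02.

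Mitochondrial enzymes outside that list were looked at after the values had been seen. Acss1, which activates acetate in mitochondria, had 259, 237 and 250 normalized reads in CTRL and 432, 410 and 479 in VDD. VDD HF male 2308 lay close to the other VDD mice, and the correlation of Acss1 with muscle was 0.55 in the other 18 libraries. The log2 fold change of Acss1 was 0.82 (standard error 0.14). Coq8a, a protein of coenzyme Q synthesis, stood at 0.97 (standard error 0.20), Sucla2 of the citric acid cycle at 0.81 (0.19) and Gpd2, the mitochondrial glycerol phosphate dehydrogenase, at 0.76 (0.20). In this group, chosen on these values, 18 of 21 genes were higher, with a median of 0.31. All 21 respiratory chain genes of the earlier list were higher in VDD, with a median log2 fold change of 0.30, but 0 passed the unadjusted threshold. The smallest p among them was that of Cycs, cytochrome c, at 793 to 1271 normalized reads in CTRL and 1473 to 1822 in VDD (log2 fold change 0.68, standard error 0.20). With the muscle level as a covariate the medians of the respiratory chain and fatty acid oxidation lists were 0.21 and 0.33. Over all tested genes 50.4% were higher in VDD.

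The thermogenic list was split between mice. Cox8b, a cytochrome oxidase subunit of brown fat and muscle, had 138, 277 and 100 normalized reads in CTRL and 570, 496 and 1009 in VDD, a log2 fold change of 2.07 (standard error 0.41, unadjusted p = 0.0011 in limma). Ucp1, the uncoupling protein that defines brown fat, had 9.8, 116 and 59.7 in CTRL and 1.01, 1043 and 734 in VDD HF males 2298, 2308 and 2307. Both 2308 and 2307 lay above the CTRL mice and 2298 lay below all of them, and the log2 fold change was 1.44 with a standard error of 2.25. It was -0.15 without 2308. Cidea, a lipid droplet protein of brown fat, followed Ucp1, at 80.4 to 251 in CTRL and 71.4, 880 and 749 in VDD. Of 11 tested genes 9 were higher in VDD, with a median of 1.00 and 2 past the unadjusted threshold, Cox8b and Cox7a1. The mouse with the lowest Ucp1, 2298, thus had high Fabp3, Cox7a1 and Cox8b together with a high muscle level, and 2308 had all of these genes high with a low muscle level.

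Cish, an inhibitor of cytokine and growth hormone signalling that STAT5 induces, had the smallest p of the rest. It had 138, 291 and 105 normalized reads in CTRL HF males 2128, 2127 and 2131, and 1179, 1059 and 1034 in VDD HF males 2298, 2308 and 2307. The 3 VDD mice lay close together, and the log2 fold change was 2.74 (standard error 0.34, unadjusted p = 5.71e-05, adjusted p = 0.305 in limma). It remained between 2.43 and 3.17 with any 1 library left out and was 2.77 with the muscle level as a covariate. Other genes of the same signalling were looked at after the values had been seen. Socs2, also induced by growth hormone, had a log2 fold change of -0.05, Igf1 0.02, the growth hormone receptor Ghr -0.17, and Bcl6, which STAT5 represses, -0.69 (standard error 0.27). Of these 15 genes Cish alone passed the unadjusted threshold, and 10 were higher and 5 lower.

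Lep, the gene of the adipocyte hormone leptin, had 10982, 7178 and 6298 normalized reads in CTRL and 16855, 15273 and 17085 in VDD. No VDD mouse overlapped a CTRL mouse, and the log2 fold change was 1.05 (standard error 0.24, unadjusted p = 0.00236 in limma). Adipoq, the gene of adiponectin, had 60457 to 103961 in CTRL and 56849 to 79995 in VDD, with a log2 fold change of -0.10 (standard error 0.34). Of 25 tested adipocyte genes 12 were higher and 13 lower, the median was -0.09, and Lep alone passed the unadjusted threshold. Grb14, an adaptor that inhibits the insulin receptor, had 204 to 213 in CTRL and 280 to 425 in VDD, a log2 fold change of 0.70 (standard error 0.19). It was the only 1 of 21 insulin signalling genes past the threshold.

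Other higher genes had varied roles. Ighm, the heavy chain of immunoglobulin M, had 3208, 1899 and 2964 normalized reads in CTRL and 5734, 9000 and 5924 in VDD (log2 fold change 1.36, standard error 0.26). It was highest in 2308, and it alone of 17 tested B and T lymphocyte genes passed the unadjusted threshold, with 12 of them higher and a median of 0.22. Rasl11b, a small GTPase, was at 87.8 to 129 in CTRL and 196 to 273 in VDD, and St3gal5, a ganglioside synthase, at 115 to 156 and 249 to 282. Kcng4, a potassium channel subunit, was near 0 in CTRL (0 to 4.81) and at 64.4, 26.7 and 72.9 in VDD. Ky, a muscle protein, and Gdap1, a mitochondrial membrane protein, had correlations with muscle of 0.72 and 0.76 and were lowest among VDD mice in 2308, at 57 and 11 normalized reads.

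**Figure D4:**
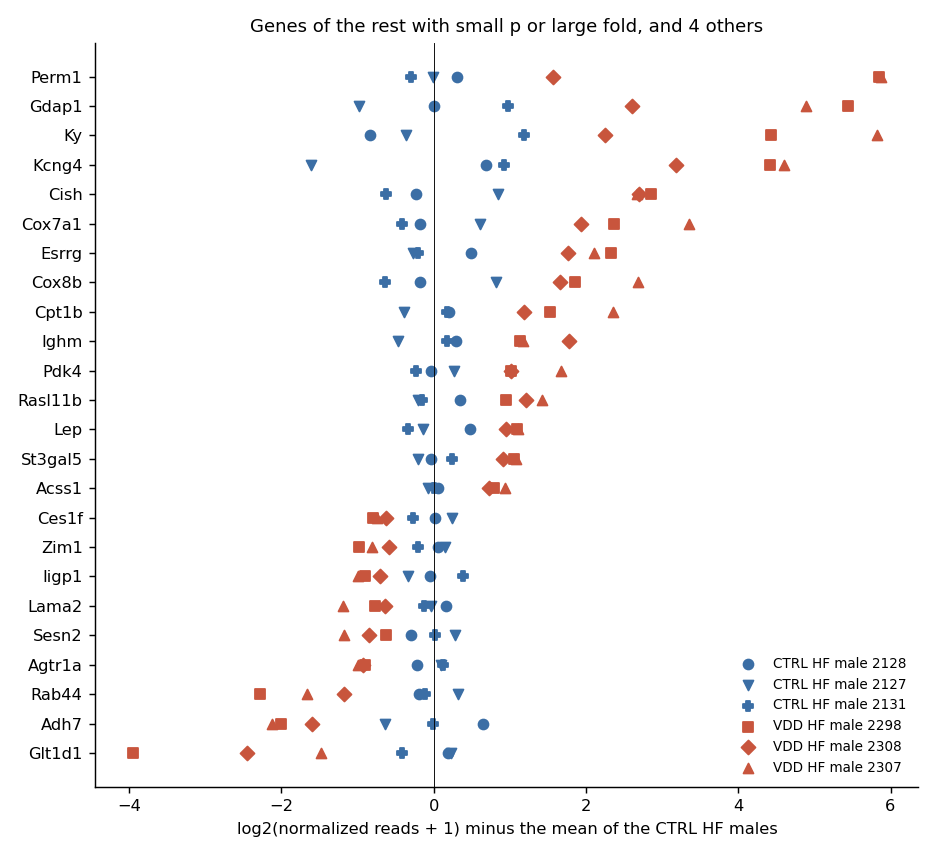
Log2(normalized reads + 1) of each HF male library minus the mean of the CTRL HF males (x axis) for the genes of the rest with the smallest p or the largest fold in each direction, chosen among genes whose groups did not overlap, and for Lep, Cox8b, Cpt1b and Cox7a1, 1 row per gene. In every row the 3 VDD libraries lie on 1 side of the 3 CTRL libraries; in Perm1, Gdap1 and Ky, VDD HF male 2308 lies much closer to CTRL than the other VDD mice.

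How far these genes leaned on 2308 was counted. Of the 62 higher genes in the rest, 2308 was the lowest VDD mouse in 38 (61.3%) and the highest in 10 (16.1%). Among all 787 genes of the rest that lay wholly above CTRL, the shares were 47.9% and 23.5%. Of the 62 genes, 21 had a correlation with muscle of at least 0.5 in the other libraries, and 0 of the 40 lower genes did, against 5.59% of all 15882 genes of the rest. With the muscle level as a covariate all 102 genes kept their direction, and 11 higher and 5 lower genes still passed the unadjusted threshold. Over all genes of the rest that fit put 28 higher and 120 lower genes past the threshold, so the balance of 62 to 40 turned. In 1 fit over the 12 male libraries 17 and 10 did.

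Among genes lower in VDD, Agtr1a had the smallest p. It encodes the main angiotensin II receptor and had 395, 492 and 499 normalized reads in CTRL HF males 2128, 2127 and 2131, and 244, 240 and 230 in VDD HF males 2298, 2308 and 2307. The VDD mice lay close together and below every CTRL mouse, and the log2 fold change was -0.95 (standard error 0.15, unadjusted p = 0.000328, adjusted p = 0.876 in limma). Lama2, the laminin chain of muscle and stromal basement membranes, had 1407, 1227 and 1148 in CTRL and 737, 808 and 548 in VDD (log2 fold change -0.87, standard error 0.18). Zim1, an imprinted zinc finger gene, had 615 to 792 in CTRL and 360 to 475 in VDD. Of 20 tested imprinted genes, also gathered after the values had been seen, 9 were higher and 11 lower, with a median of -0.04, and Zim1, H19 and Slc38a4 passed the unadjusted threshold. Sesn2, a stress-induced inhibitor of mTORC1, had 1118 to 1661 in CTRL and 605 to 888 in VDD (log2 fold change -0.88, standard error 0.20). Ces1f, a carboxylesterase, had 2823 to 4039 and 1958 to 2205.

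The largest differences among lower genes were in genes of low level. Adh7, an alcohol and retinol dehydrogenase, had 43.1, 17.1 and 26.9 normalized reads in CTRL and 6.03, 8.27 and 5.47 in VDD, a log2 fold change of -1.91 (standard error 0.42). Rab44, a GTPase of mast cells and other immune cells, had 24.5 to 35.4 in CTRL and 5.03 to 11.9 in VDD. Glt1d1, a glycosyltransferase-like gene, had 16.7, 17.1 and 10.6 in CTRL and 0, 1.84 and 4.56 in VDD. At this depth 1 normalized read is about 1 read, so these last values rest on a few reads. Pdgfrb, the receptor of mural and stromal cells, had 1498 to 1644 in CTRL and 842 to 1142 in VDD, a log2 fold change of -0.60 (standard error 0.16, unadjusted p = 0.00571 in limma) that fell just short of the fold limit. Of 17 tested progenitor and stromal genes 16 were lower, with a median of -0.39 and 0 past the threshold. The sign of that median turned with the muscle level as a covariate, where it was 0.12. In 2308 Pdgfra, the receptor that marks progenitors, was at 1597 normalized reads, above the CTRL mice at 1161 to 1479, while 2298 and 2307 had 731 and 677.

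Interferon-inducible GTPases, which act against intracellular microbes, were among the lower genes. Iigp1, the only gene of the interferon response list past the threshold, had 1276, 1042 and 1725 normalized reads in CTRL and 704, 811 and 663 in VDD (log2 fold change -0.87, standard error 0.20). Its relatives were gathered after the values had been seen. Igtp had 512 to 825 in CTRL and 401 to 423 in VDD, Gbp4 1582 to 2192 and 783 to 1282, and Tgtp1 119 to 257 and 67.1 to 96.5. Tgtp1 has a near-identical neighbour, Tgtp2, and reads that fit both were not kept, so its level is uncertain. Of the 15 tested members of this group 12 were lower, 4 of them past the threshold, with a median of -0.39. Of the 3 higher members Gbp11 had the largest difference, with 76.8 to 115 in CTRL and 102, 287 and 416 in VDD, a log2 fold change of 1.36 (standard error 0.48). Of the 22 interferon response genes of the earlier list 14 were lower and 8 higher, with a median of -0.12 (0.13 with the muscle level as a covariate).

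Mast cell proteases, gathered in the same way, were lowest in 2298. Mcpt4, a chymase, had 243, 307 and 451 normalized reads in CTRL and 67.4, 214 and 108 in VDD (log2 fold change -1.47, standard error 0.42). Tpsb2, a tryptase, had 185 to 402 and 69.4 to 196, and the groups overlapped. Of the 9 mast cell genes 8 were lower, with a median of -0.97 and 1 past the threshold. Alas2, the first enzyme of haem synthesis in red cells, had 718 to 1368 in CTRL and 485 to 613 in VDD. Of 7 tested blood genes 5 were lower, and Alas2 alone passed the threshold.

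Inflammation was a question of the study, and 1 of its cytokine and chemokine genes passed the unadjusted threshold. Of 17 tested cytokines and cytokine receptors 5 were higher and 12 lower, with a median of -0.11 and 0 past the unadjusted threshold. With the muscle level as a covariate that median was 0.34. The smallest p was that of Il4ra, a receptor chain of interleukin 4, with a log2 fold change of -0.32 (standard error 0.20). Tnf, Il6 and Il1b were below the filter, at 1.84 to 14.7, 1.96 to 4.88 and 1.96 to 10.6 normalized reads over the 6 libraries. Of 21 chemokines 1 passed, Ccl7, a chemokine for monocytes, at 69.5 to 78.4 normalized reads in CTRL and 106, 156 and 151 in VDD (log2 fold change 0.87, standard error 0.22). Its neighbour Ccl2 had 52.4 to 76.5 in CTRL and 55.3 to 109 in VDD, with a log2 fold change of 0.28 (standard error 0.30). Saa3, an acute-phase gene of fat, had 320, 288 and 514 in CTRL and 188, 1739 and 853 in VDD, with a log2 fold change of 0.85 (standard error 0.72). It was 0.15 without 2308.

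Macrophage genes also turned on single mice. Adgre1, the F4/80 antigen, had 870, 935 and 1394 normalized reads in CTRL and 617, 1824 and 889 in VDD, so that the lowest and the highest of the 6 were both VDD mice. Its log2 fold change was -0.06 (standard error 0.38). Cd68 had -0.30 (standard error 0.28), and Itgax, which encodes CD11c, 0.53 (standard error 0.38). Timd4, a marker of resident macrophages, was at 97.1 to 112 in CTRL and at 35.2, 96.5 and 23.7 in VDD HF males 2298, 2308 and 2307. Of 25 macrophage genes 16 were lower, with a median of -0.19. That median was -0.59 without 2308, and its sign turned with the muscle level as a covariate, where it was 0.34.

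The median mRNA differences of the study's signalling pathways lay near 0. The paper measured phosphorylation, which mRNA levels do not show, and among males reported the highest p65 phosphorylation in VDD HF. For p38 it reported raised phosphorylation in CTRL HF males compared with the other groups, and no effect of VDD. Its Ingenuity pathway analysis of this contrast listed NF-kB and p38 signalling as raised. Its Gene Ontology analysis of the same contrast found no pathway of inflammation. Of 23 NF-kB genes 12 were higher and 11 lower, with a median of 0.02. The log2 fold change of Nfkb1 was -0.22 (standard error 0.14) and that of Rela -0.03 (standard error 0.16), and the NF-kB gene with the smallest p was Bcl3 at 0.41 (standard error 0.23). Of 20 genes of the p38 pathway 13 were higher, with a median of 0.11. Mapk14, p38 itself, stood at 0.08 (standard error 0.14), and Map3k6, a kinase upstream, at 556 to 621 normalized reads in CTRL and 403 to 476 in VDD (log2 fold change -0.44, standard error 0.14). The vitamin D receptor Vdr was low, at 9.76 to 24.1 in CTRL and 5.03 to 32.2 in VDD, with a log2 fold change of 0.01 (standard error 0.66). Its target Cyp24a1 had at most 1.92 normalized reads and was not tested. Of 11 vitamin D genes 6 were higher and 5 lower, and the smallest p was that of Dhcr7, which uses up the precursor of vitamin D (log2 fold change 0.35, standard error 0.18).

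In the remaining lists 0 genes passed the threshold, and their medians lay between -0.56 and 0.39. The highest of these, that of the acute phase genes, was -0.07 without 2308. Of 20 cholesterol synthesis genes 18 were higher, with a median of 0.20 and the smallest p for Cyp51 (log2 fold change 0.34, standard error 0.15). Of 29 collagen and matrix genes 21 were lower, with a median of -0.19 that became 0.24 with the muscle level as a covariate. The smallest p among them was that of Mmp3, stromelysin, at 170 to 189 normalized reads in CTRL and 78.4 to 140 in VDD. Cp, ceruloplasmin, led the acute phase list at 1971 to 2257 and 1190 to 1807, and Cfd, adipsin, the complement list at 65129 to 169016 and 38088 to 60411. Hk1, a hexokinase, led the hypoxia list (log2 fold change -0.42), Scd2, a desaturase, the fatty acid synthesis list (0.89), Bhlhe40 the clock list (0.89), Nr4a1 the immediate early list (1.30) and Gsta3 the glutathione list (-0.32). Eng led the endothelial list (-0.56), Tagln the smooth muscle list (-0.59), Tk1 the cell cycle list (0.61) and Krt7 the mesothelial list (-1.34), and Cyp11a1 (-0.86) and Ncam1 (-0.36) those of kidney and adrenal and of nerve. Nr4a1, a receptor induced by exercise and stress, had 129 to 145 in CTRL, 163 in 2308, and 495 and 510 in 2298 and 2307, and its correlation with muscle was 0.76.

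Levels of other cells in the depot also differed between single libraries. The 4 mesothelial markers Msln, Upk3b, Wt1 and Krt19 summed to 1754 to 4458 normalized reads in CTRL and to 618, 3868 and 2308 in VDD HF males 2298, 2308 and 2307. The 3 macrophage markers summed to 4294 to 6127 in CTRL and to 2956 to 7268 in VDD. The 3 smooth muscle markers Myh11, Acta2 and Cnn1, which are not skeletal, summed to 3980 to 8267 in CTRL and 3258 to 4418 in VDD. The 4 cardiac markers summed to at most 158, with Nppa at 0 in every library, and the 3 T cell markers summed to at most 62.6. The part of these cells in the differences between groups was not tested.

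**Figure D5:**
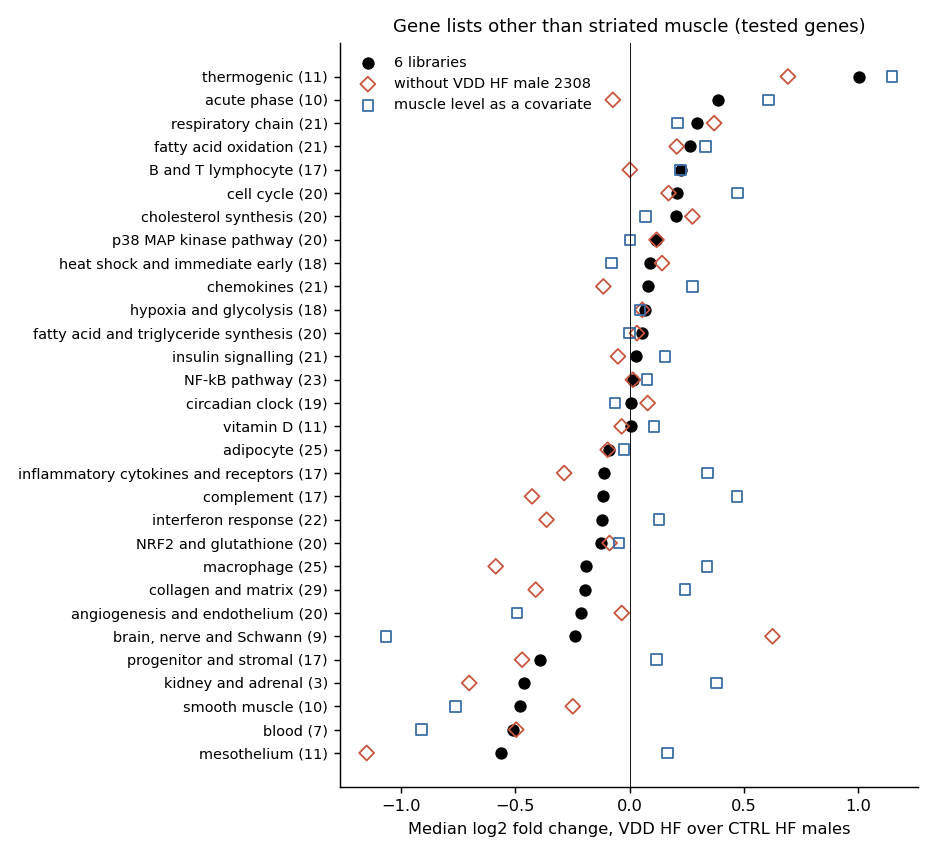
Median log2 fold change (x axis) of each gene list other than striated muscle, with the number of tested genes, for all 6 libraries (filled), without VDD HF male 2308 (diamonds) and with the muscle level as a covariate (squares). With all 6 libraries thermogenic genes have the highest median at 1.00 and mesothelial genes the lowest at -0.56, and the macrophage median lies on either side of 0 at -0.59 and 0.34. Stromal, collagen, cytokine, interferon and mesothelial medians also turn from below to above 0 with the covariate, while endothelial, smooth muscle and blood medians fall further.

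The same maternal contrast was set beside that of LF sons, who ate the low-fat diet for the same weeks, and of HF daughters, 2 comparisons that share no library with this one. Limma called 0 genes in both, and 226 (1.46%) and 822 (4.99%) passed the unadjusted threshold. An unadjusted p under 0.05 was reached by 6.79% of genes in LF sons and 16.7% in HF daughters. The median log2 fold change of muscle-following genes was 2.25 in LF sons and 0.12 in HF daughters, for the 126 and 106 of them tested there. For Acta1 the log2 fold change was 2.34 (unadjusted p = 0.364 in limma) and 0.53 (unadjusted p = 0.753 in limma). Single mice weighed on the value in LF sons. Muscle-following genes held 0.0624%, 13.6% and 0.73% of the reads in VDD LF males 2078, 2310 and 2302. In CTRL LF males 2293, 2296 and 2287 they held 0.0517%, 0.0722% and 1.02%. Of the 102 genes of the rest, 88 were tested in LF sons and 65 of these (73.9%) had the same sign, against 59.7% over all genes of the rest. Of the 62 higher genes among the 102, 21 had a correlation with muscle of at least 0.5, against 5.59% of the rest. The share of 59.7% was not matched for that correlation. In HF daughters 46 of 88 (52.3%) had the same sign, as did 52.3% of all. The median of the respiratory chain list was 0.48 in LF sons and 1.24 in HF daughters. For fatty acid oxidation the medians were 0.18 and 1.21, and for the thermogenic list 0.43 and 2.17. Higher medians of these lists were thus not particular to HF sons.

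Passing the unadjusted threshold with the same sign in LF sons also were Coq8a, Gpd2 and Mcpt4. Coq8a had a log2 fold change of 1.52 there (standard error 0.18) and 2.57 in HF daughters (standard error 0.54). Gpd2 had 1.02 in LF sons and 1.55 in HF daughters. In HF daughters 8 of the 102 genes passed, Coq8a, Gpd2, Sucla2, Cpt1b, Cox8b, Lama2, Myoc and Pamr1. Cox8b had 4.16 in HF daughters, and Cox7a1, which is counted with muscle, 3.95 there and 2.42 in LF sons. Cish had 0.27 in LF sons and 1.16 in HF daughters, and Agtr1a -0.71 and -0.07. The LF value of Cish rests on 1 CTRL LF male at 1956 normalized reads, scaled over the 24 libraries, against 158 and 156 in the other two. All genes in this paragraph were chosen for passing in HF sons, and 0 of them passed the adjusted test in any of the 3 comparisons.

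Whether the maternal difference itself differed was tested by interaction. Limma called 0 genes for the difference between HF and LF sons (smallest adjusted p 0.369) and 0 for that between HF sons and HF daughters (smallest adjusted p 0.121). An unadjusted p under 0.05 was reached by 654 of 16925 and 1849 of 17329 genes. Of the 102 genes of the rest, 8 had an unadjusted interaction p under 0.01 with offspring diet, against 0.934% of all genes, and 25 had one with sex, against 2.56%. These shares are raised because the 102 were chosen on the HF male difference that enters both interactions. Among the 8 were Lep, Oxtr, Ubd and Kcnj14, which were higher in VDD under HF and had negative log2 fold changes under LF. Oxtr, the oxytocin receptor, had 271 to 411 normalized reads in CTRL HF and 522 to 952 in VDD HF males (log2 fold change 1.10, standard error 0.26), against a log2 fold change of -2.13 in LF sons (limma interaction, unadjusted p = 0.000331, adjusted p = 0.493).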

How the data were processed

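Polyadenylated RNA of retroperitoneal fat was sequenced from 24 mice, 3 in each of 8 groups, and groups were taken from the labels. According to the methods and the submitters' processing notes, reads were trimmed (Sickle), aligned to mm10 keeping unique positions (STAR 2.7.0d), assembled (Cufflinks 2.2.1) and counted on GENCODE vM1 plus assembled loci (featureCounts 1.6.1). The values deposited by the authors are log2(normalized reads + 1), scaled within each table of 2 groups, and the authors' DESeq2 columns (mean, fold change, error, statistic and both p-values) were not used. Undoing the log2 gave whole reads for 100% of values within 0.02. The depth was 14789476 to 17275511 reads, counting error is therefore large below about 10 reads, and 4 entries whose date-like names occur repeatedly were dropped.

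The HF male table was fitted with limma 3.58.1 (lmFit, eBayes with trend, two-sided) in R 4.3.3. A log2 fold change is a difference of log2(normalized reads + 1), which understates changes of low genes. Interactions and the fit over 12 males used reads scaled together over the 24 libraries. Scripts were tested on simulated data. Alternatives were limma-voom, a fit over 12 males, other scalings, a pseudocount of 10, other filters, the muscle level as a covariate, other limits for following muscle and leaving out each library. A term for the word renal, leaving out 2298 and 2307 together, and the interactions with a pseudocount of 10 were added after seeing the data.

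The genes set apart and the 31 lists were chosen with earlier results of these data known, and 6 further lists were gathered after the values had been seen. Named by rule were Acta1 and Ckm, the most abundant muscle genes of each role, the 6 most abundant muscle-following genes on no list (1 of them is not reported here), the 8 genes of the rest with the smallest p and the 3 with the largest fold in each direction, the member of each list with the smallest p or past the unadjusted threshold, and 15 fixed genes (the adipokines Lep and Adipoq, the cytokines Tnf, Il6, Il1b and Ccl2, the macrophage and acute-phase genes Adgre1, Itgax, Cd68 and Saa3, and Ucp1, Vdr, Nfkb1, Rela and Mapk14). Other genes were named after their values were seen. Of 15109 tested names that are not assembled loci, 99.4% are in GENCODE M21 (GRCm38), which gave the positions, and RefSeq (GRCm38.p6) gave the start regions. Tables and plots were made in Python 3.11.15 (pandas 2.3.3, numpy 2.4.6, matplotlib 3.10.9, scipy 1.17.1).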

Additional observations from a re-analysis of the deposited data

Results flagged for a closer look

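Lep stood out because its maternal difference had opposite signs in HF and LF sons. In HF sons the log2 fold change of VDD over CTRL was 1.05. In LF sons it was -3.52, with 3646, 2113 and 4808 normalized reads in CTRL LF males and 105, 407 and 564 in VDD LF males. The interaction was 4.60 on the log2 scale (standard error 0.73, unadjusted p = 5.18e-05, limma adjusted p = 0.369), and it did not pass the adjusted threshold. All 3 VDD mice were higher than all 3 CTRL mice under HF and lower under LF.

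Cfd, the complement factor adipsin, stood out because its difference had opposite signs in HF sons and HF daughters. The log2 fold change was -0.95 in HF sons and 1.10 in HF daughters, where CTRL mice had 83363, 108270 and 163758 normalized reads and VDD mice 374863, 171232 and 225204. The interaction was -2.02 on the log2 scale (standard error 0.67, unadjusted p = 0.0118, limma adjusted p = 0.40), and it did not pass the adjusted threshold either. The cause of both differences was not tested.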

How the results depend on the processing

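No gene was called by limma under any alternative except without VDD HF male 2308, so leaving out 1 library gave 0 to 142 called genes, and the interactions called 0 with either pseudocount. The 13 muscle-following genes past the unadjusted threshold became 5 with limma-voom, 2 in the fit over 12 males, 47 with no filter, 5 with the muscle level as a covariate, 4 without both 2298 and 2307, 20 and 6 at a correlation of at least 0.7 and 0.9, 27 with the correlation taken over the 6 libraries compared, and 3 to 118 with 1 library left out. The 102 other genes became 40 over 12 males, 197 with no filter, and 36 to 436 with 1 library left out (the lowest without 2307 and the highest without 2308). With the covariate they split into 28 higher and 120 lower. The covariate is the mean log2 level of Acta1 and Ckm, so a fall of muscle-following genes towards 0 was built into that fit. Signs turned with the covariate for Acta1 (-0.45), Eno3 (-0.32), Klhl41 (-0.19), Tpm1 (-0.11), Adgre1 (0.62), Cd68 (0.24), Itgax (-0.021) and Adipoq (0.083). Without 2298 and 2307, where the lone VDD mouse is assumed to vary like the CTRL mice, they turned for Acta1 (-0.71), Myl1 (-0.17), Eno3 (-0.51), Tpm1 (-0.33), Pde4dip (-0.00057), Adgre1 (0.81), Cd68 (0.34) and Adipoq (0.046), and with limma-voom for Vdr (-0.011). With 1 library left out Adgre1 ranged from -0.49 to 0.29, Adipoq from -0.26 to 0.13, Ucp1 from -0.15 to 4.37, Vdr from -0.52 to 0.71 and Rela from -0.14 to 0.081. Over all pairs of a named gene and an alternative, 1037 kept direction and side of the threshold, 85 fell short of it, 38 passed it anew and 29 turned sign. The cause was not tested. No paired analysis was possible because the titles number the mice of each group while the columns of the table carry other mouse numbers, so the replicate block was not run. Counting error limits genes below about 10 reads.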
